A study of Mus musculus with 4 samples.

Results

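Lgr4, Lgr5 and Lgr6 are the receptors for the 4 R-spondins, the secreted proteins encoded by Rspo1, Rspo2, Rspo3 and Rspo4, and these 7 genes were followed in mouse mammary cells grown with or without Wnt3A. Every probe set whose single gene symbol in the platform annotation was one of the 7 was taken, which gave 12 probe sets out of 45037 other than array controls, 6 for the receptors and 6 for the R-spondins. Lgr4, Lgr5, Lgr6, Rspo2 and Rspo3 each had 2 probe sets, and Rspo1 and Rspo4 had 1 each. All 12 names end in the plain suffix by which the manufacturer marks probes designed to match a single transcript.

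Cells came from mammary glands of virgin female CD1 mice aged 8 to 12 weeks and were sorted as lineage-negative (no CD31, CD45 or TER119), CD24+ and CD29hi, a basal gate rich in mammary stem cells. They formed colonies in growth factor reduced Matrigel, a basement membrane gel, in medium that held EGF at 50 ng/ml. Purified Wnt3A was added at 200 ng/ml, or its vehicle, the detergent CHAPS in buffer, in its place. The described medium names no added R-spondin. Total RNA of colonies at passage 2, after 6 to 7 days, was hybridised to single-colour Affymetrix Mouse Genome 430 2.0 arrays, 2 for Wnt3A (Wnt3A 1 and Wnt3A 2) and 2 for vehicle (control 1 and control 2). Separate animals or cultures behind the 2 arrays of a group are not stated, and the p-values then reflect only how far these arrays differ, which may be technical.

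R-spondins do not activate Wnt signalling by themselves. The membrane ubiquitin ligases Znrf3 and Rnf43 remove Frizzled receptors from the cell surface, and an R-spondin that bridges an Lgr receptor and one of these ligases takes the ligase away, so that Frizzled receptors stay and the response to Wnt proteins is stronger. Lgr5 marks stem cells of the intestine and the hair follicle and is itself a Wnt target there, Lgr6 marks stem cells of the upper hair follicle, and Lgr4 is expressed more widely. In the mouse mammary gland Rspo1 is made by luminal cells and acts with Wnt4 on basal stem cells.

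The deposited values are log2 values from which the median of each probe set over the 4 arrays was removed, so a value of 0 is that median and the values carry no level. A coarse level could still be read from the size of the steps in which the numbers were stored, as a median of log2 8 to 16, of 4 to 8, or below 4. Such a reading can place a probe set too high by chance. Read in this way, 1 of the 2 probe sets of Lgr4, 1 of Lgr6, both of Lgr5 and that of Rspo1 lay in the band of 8 to 16. The second probe sets of Lgr4 and Lgr6 and 1 of Rspo2 lay in the band of 4 to 8, and the other probe set of Rspo2 and those of Rspo3 and Rspo4 lay below 4. Over all probe sets, 45.3% lay in the upper band, 41.9% in the middle one and 12.8% in the lowest.

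Sorted basal cells were the starting material, and the markers Krt5, Krt14, Trp63, Krt17, Acta2 and Myh11, all 6 of that list, were in the upper band. The luminal markers Krt8, Krt18, Krt19, Epcam, Elf5 and Foxa1 were also there, so the bands do not separate basal from luminal cells. Of 7 fibroblast markers, 6 were measured above the lowest band, 4 of them in the upper one, and Lum was not. The endothelial markers Pecam1 and Tek lay in the upper band, and Kdr and Cdh5 in the middle one. Of the immune markers, Cd68 and Lyz2 lay in the upper band, Cd3e in the middle one and Ptprc in the lowest. The bands do not separate basal cells from these types either. In bulk RNA such as this, fewer cells of a type and less RNA per cell cannot be told apart.

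Of the 3 receptors, Lgr6 had higher values with Wnt3A on both probe sets, Lgr5 had lower values on 1 of its 2 probe sets, and Lgr4 differed little. The 6 R-spondin probe sets differed by -0.12 to 0.12 log2 units. No probe set passed the test: limma called 0 of 45037 at a Benjamini-Hochberg adjusted p under 0.05 (0%), and 0 of the 12 members, whose smallest adjusted p was 0.645. At an unadjusted p under 0.05 it counted 2801 probe sets (6.22%), among them 2 of the 12. Member differences are therefore given as measured values. A group of 2 against 2 arrays cannot give a two-sided exact permutation p below 0.33.

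**Figure D1:**
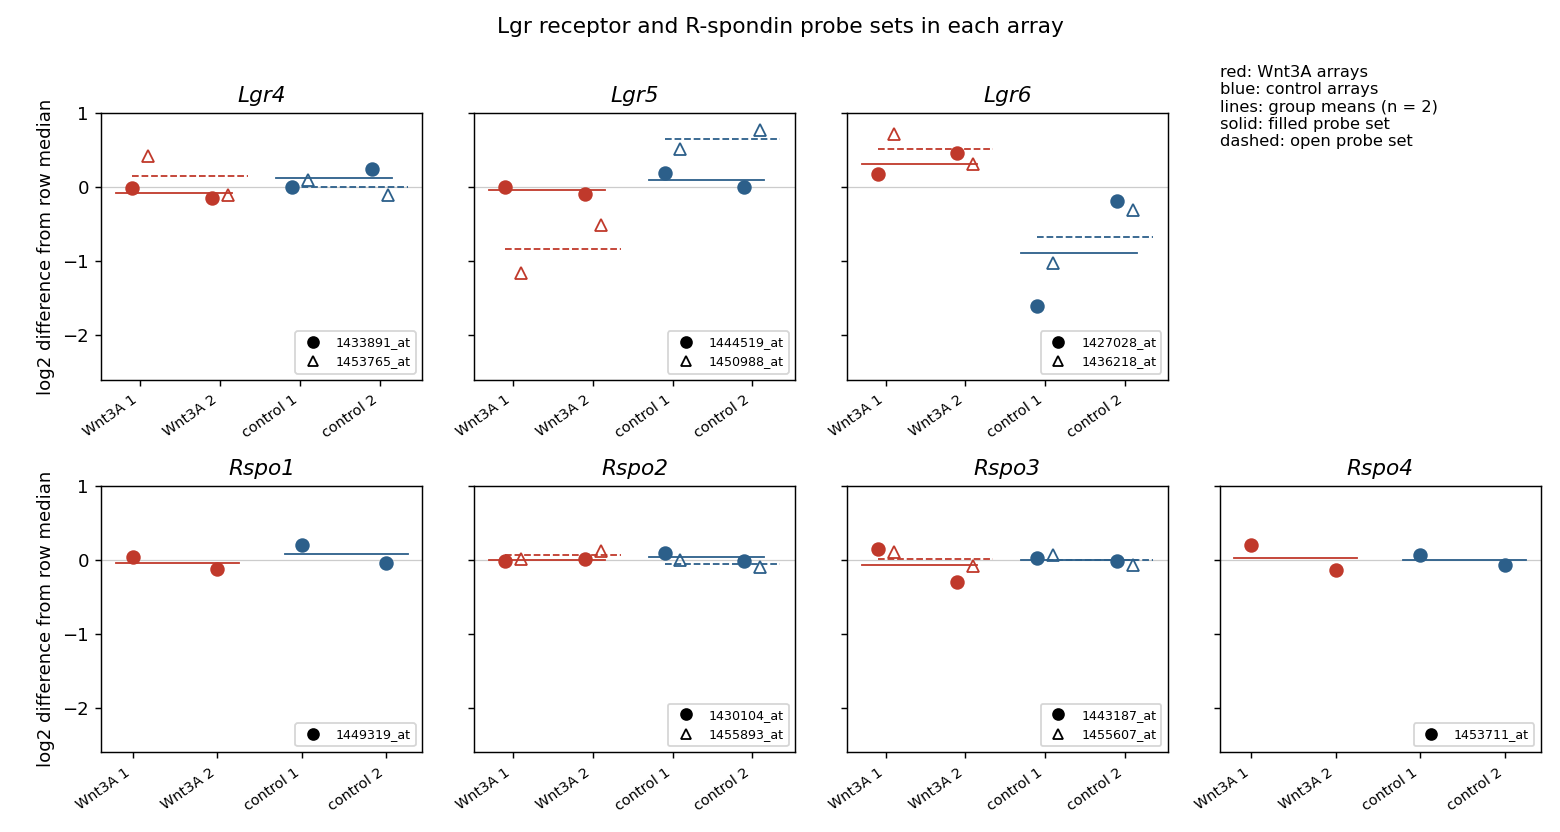
Each point is the deposited log2 value of 1 probe set in 1 array, as a difference from that probe set's median over the 4 arrays, with Wnt3A arrays in red and control arrays in blue, filled circles and open triangles for the 2 probe sets of a gene, and lines for the means of 2 arrays. Both Lgr6 probe sets lie above 0 in both Wnt3A arrays and below 0 in both controls, the open Lgr5 probe set does the opposite, and the R-spondin points stay between -0.30 and 0.21.

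Lgr6, the receptor known as a stem cell marker in mouse skin, was measured by probe sets 1436218_at and 1427028_at. Probe set 1436218_at, in the upper level band, had log2 values of 0.72 in Wnt3A 1 and 0.31 in Wnt3A 2, against -1.03 in control 1 and -0.31 in control 2. Both Wnt3A arrays were higher than both controls, with 0.63 log2 units between the nearest arrays of the groups. The difference was 1.19 ± 0.30 log2 units (SE of the limma fit, n = 2 arrays a group), a ratio of 2.28, with a 95% interval of 0.37 to 2.00, and it did not pass the test (limma, adjusted p = 0.728).

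Probe set 1427028_at, in the middle level band, had 0.18 in Wnt3A 1 and 0.46 in Wnt3A 2, against -1.60 in control 1 and -0.18 in control 2. The groups were again separate, by 0.36 log2 units, and control 1 was far below the other 3 arrays. The difference was 1.21 ± 0.51 log2 units (SE, n = 2 arrays a group), a ratio of 2.31, with a 95% interval of -0.16 to 2.58 (limma, adjusted p = 0.829). The 2 probe sets of Lgr6 thus gave like differences: the first minus the second (1427028_at minus 1436218_at) was -0.54 and 0.14 in the Wnt3A arrays and -0.58 and 0.13 in the controls, and its own Wnt3A difference was 0.03. That ratio of the probe sets followed the array number, not the treatment.

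Control 1 set much of the size of the Lgr6 difference. Without it the difference was 0.83 for 1436218_at and 0.50 for 1427028_at, and without control 2 it was 1.54 and 1.92. Within array number 1, Wnt3A was higher than control by 1.74 and 1.79 log2 units on the 2 probe sets, and within number 2 by 0.63 and 0.64. The direction was the same in all of these. Control 1 was also the lowest array for 4 of the 6 basal markers, among them Acta2 (-1.66) and Myh11 (-1.67), and for Itgb1 (-0.77), which encodes the CD29 of the sort. The other basal markers were lowest elsewhere, Krt5 in control 2 (-0.42) and Trp63 in Wnt3A 1 (-0.22). Of the 6 luminal markers, Krt8 (-0.51) and Krt18 (-0.41) were also lowest in control 1. Krt19 (-1.61), Elf5 (-1.72) and Epcam (-0.28) were lowest in Wnt3A 2, and Foxa1 (-1.85) in Wnt3A 1. The basal marker list had medians of -0.17 and 0.31 in the Wnt3A arrays, against -0.57 in control 1 and 0.08 in control 2. Its part in the Lgr6 difference was not tested.

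For the promoters, 4 member genes (Lgr4, Lgr6, Rspo1 and Rspo4) had a window of 250 bases before to 50 after a start site in RefSeq for build GRCm38.p6. The bases upstream of every annotated start are given for Lgr6, with the clearest higher values on both probe sets, and for Lgr4, with little difference, each 5′ to 3′ on the strand of its gene and in lower case, with any match to the core of the TCF/LEF site in capitals. TCF/LEF proteins are the DNA-binding factors of canonical Wnt signalling. The Lgr6 stretch is chr1:135105375-135105526, minus strand, and the Lgr4 stretch is chr2:109917397-109917646, plus strand.
Lgr6: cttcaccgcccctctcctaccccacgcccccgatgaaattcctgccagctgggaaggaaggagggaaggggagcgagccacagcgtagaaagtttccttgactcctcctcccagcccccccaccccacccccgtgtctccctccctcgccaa
Lgr4: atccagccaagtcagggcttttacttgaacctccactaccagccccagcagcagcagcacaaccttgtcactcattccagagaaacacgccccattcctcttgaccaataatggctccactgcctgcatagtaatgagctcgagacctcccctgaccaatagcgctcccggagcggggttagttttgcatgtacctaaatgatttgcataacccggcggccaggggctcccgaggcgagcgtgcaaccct
The letters CTTTG were searched on both strands. They were in 53.9% of all 32851 windows and in none of the 4 member windows, and the longer form CTTTGAT, which contains CTTTG, was in 3.7% and in none. No capitals therefore appear, which says only that these letters are not in these windows.

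Lgr5, the receptor best known as a marker of intestinal and hair follicle stem cells, was measured by 1450988_at and 1444519_at, and they disagreed in size. Probe set 1450988_at had -1.16 in Wnt3A 1 and -0.52 in Wnt3A 2, against 0.52 in control 1 and 0.77 in control 2. Both Wnt3A arrays were lower than both controls, with a gap of 1.03 log2 units between the nearest arrays, wider than the 0.64 between the Wnt3A arrays and the 0.26 between the controls. The difference was -1.48 ± 0.26 log2 units (SE, n = 2 arrays a group), with a 95% interval of -2.19 to -0.77, which is a level 2.80 times as high in controls, and it did not pass the test after adjustment (limma, adjusted p = 0.645). No single array decided it: with each array left out in turn the difference lay between -1.80 and -1.16.

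Probe set 1444519_at had 0.00 in Wnt3A 1 and -0.09 in Wnt3A 2, against 0.19 in control 1 and 0.00 in control 2. Wnt3A 1 and control 2 had the same stored value, so the groups touched. The difference was -0.14 ± 0.14 log2 units (SE, n = 2 arrays a group), with a 95% interval of -0.50 to 0.23 (limma, adjusted p = 0.972), an interval that does not reach the -1.48 of the other probe set. Its level band rests on a single informative stored value, since 2 of its 4 values were exactly 0, and the step of its lowest value reads as a level under 8 in at least 1 array. The first minus the second probe set (1444519_at minus 1450988_at) was 1.16 and 0.43 in the Wnt3A arrays and -0.33 and -0.77 in the controls, a Wnt3A difference of 1.35 that separated the groups with the smallest exact permutation p the design allows (two-sided exact permutation test, p = 0.33).

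Lgr4, the receptor with the widest expression, was measured by 1433891_at and 1453765_at, which had small differences of opposite sign. Probe set 1433891_at, in the upper band, had -0.01 in Wnt3A 1 and -0.15 in Wnt3A 2, against 0.01 in control 1 and 0.25 in control 2. The groups did not overlap, but only 0.01 log2 units lay between the nearest arrays, less than the 0.15 and 0.24 between arrays of one group. The difference was -0.20 ± 0.15 log2 units (SE, n = 2 arrays a group), with a 95% interval of -0.61 to 0.20 (limma, adjusted p = 0.943). Probe set 1453765_at, in the middle band, had 0.42 and -0.10 in the Wnt3A arrays, against 0.10 and -0.10 in the controls. The groups overlapped, and the difference of 0.16 ± 0.22 was smaller than the 0.52 between the Wnt3A arrays.

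Lgr6 had positive differences and Lgr5 negative ones, by an amount that depended on the Lgr5 probe set. Probe set 1436218_at of Lgr6 minus probe set 1450988_at of Lgr5 was 1.88 and 0.83 log2 units in the Wnt3A arrays, against -1.54 and -1.09 in the controls. The Wnt3A difference of that ratio was 2.67, and with 1427028_at in place of 1436218_at it was 2.69. With the other Lgr5 probe set, 1444519_at, in place of 1450988_at, the differences of the ratio were 1.32 and 1.35. Both Wnt3A arrays lay above both controls in each of the 4 forms, where the smallest exact permutation p is 0.33. That outcome was fixed by the values already given. Both Lgr6 probe sets were higher in both Wnt3A arrays, and no Wnt3A value of Lgr5 lay above a control value of the same probe set. The 4 forms reuse the same probe sets and add no evidence. The pair was set side by side after both values were known. The ratio compares changes and not levels, since the values of different probe sets are not on a common scale.

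**Figure D2:**
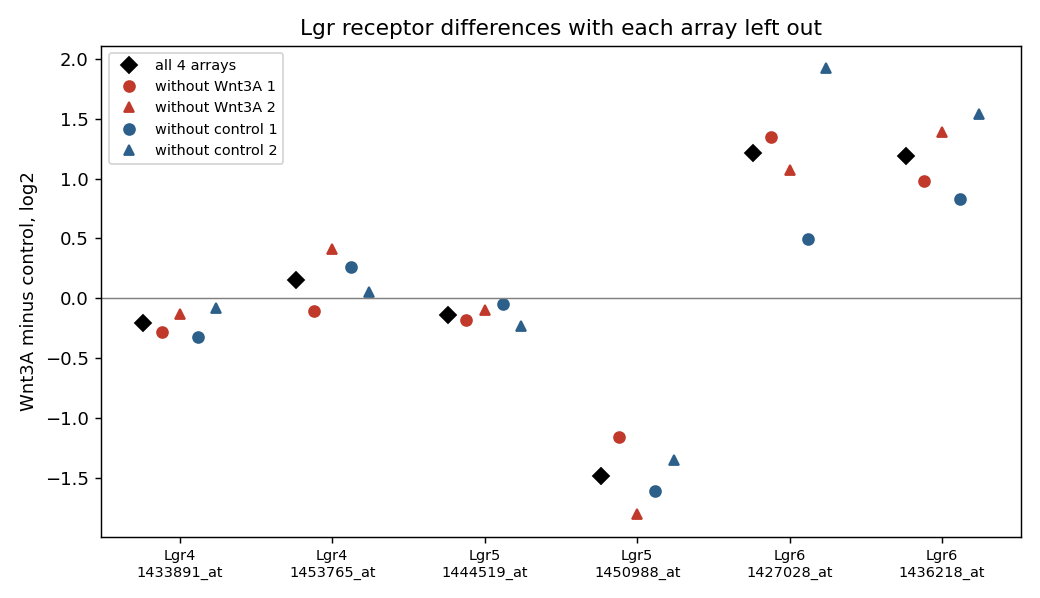
Each point is the Wnt3A minus control difference in log2 units of 1 Lgr probe set, from all 4 arrays (black diamond) or with 1 array left out (red for a Wnt3A array, blue for a control). The points of Lgr5 1450988_at stay between -1.80 and -1.16 and those of Lgr6 stay above 0, lowest without control 1, while Lgr4 1453765_at falls to -0.10 without Wnt3A 1.

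For 5 of the 6 R-spondin probe sets the groups overlapped. Rspo1, the R-spondin made by luminal cells of the mouse mammary gland, was the R-spondin gene in the upper level band. That band held 45.3% of all probe sets and can be read too high by chance, so it does not establish that Rspo1 was well expressed. The Rspo1 probe set 1449319_at had 0.04 in Wnt3A 1 and -0.12 in Wnt3A 2, against 0.21 in control 1 and -0.04 in control 2. The groups overlapped, and the difference of -0.12 ± 0.15 log2 units (SE, n = 2 arrays a group; 95% interval -0.54 to 0.29) was smaller than the 0.17 between the Wnt3A arrays and the 0.25 between the controls.

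Rspo2, an R-spondin needed for limb and lung development in mice, had 1 probe set in the middle band and 1 in the lowest. Probe set 1430104_at had -0.01 and 0.01 in the Wnt3A arrays, against 0.10 and -0.02 in the controls, and differed by -0.04 ± 0.12. Probe set 1455893_at had 0.01 and 0.12 in the Wnt3A arrays, against -0.01 and -0.10 in the controls. These groups did not overlap, with the nearest arrays 0.01 log2 units apart. The difference of 0.118 ± 0.13 (95% interval -0.22 to 0.46) was about as large as the 0.115 between the Wnt3A arrays and the 0.096 between the controls, and it did not pass the test (limma, adjusted p = 0.977).

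Rspo3, an R-spondin that endothelial and stromal cells make in many mouse tissues, had both probe sets below log2 4. Probe set 1443187_at had 0.14 in Wnt3A 1 and -0.30 in Wnt3A 2, against 0.02 and -0.02 in the controls, and differed by -0.08 ± 0.19. Probe set 1455607_at had 0.11 and -0.08 in the Wnt3A arrays, against 0.07 and -0.07 in the controls, and differed by 0.02 ± 0.14. In both, the Wnt3A arrays lay on either side of the controls.

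Rspo4, the R-spondin required for nail formation in humans, also lay below log2 4. Its probe set 1453711_at had 0.19 and -0.14 in the Wnt3A arrays, against 0.07 and -0.07 in the controls, and differed by 0.03 ± 0.17. The intervals of the 6 R-spondin probe sets ran from -0.59 to 0.48 at their widest, and differences outside that range lie outside all 6 intervals.

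**Figure D3:**
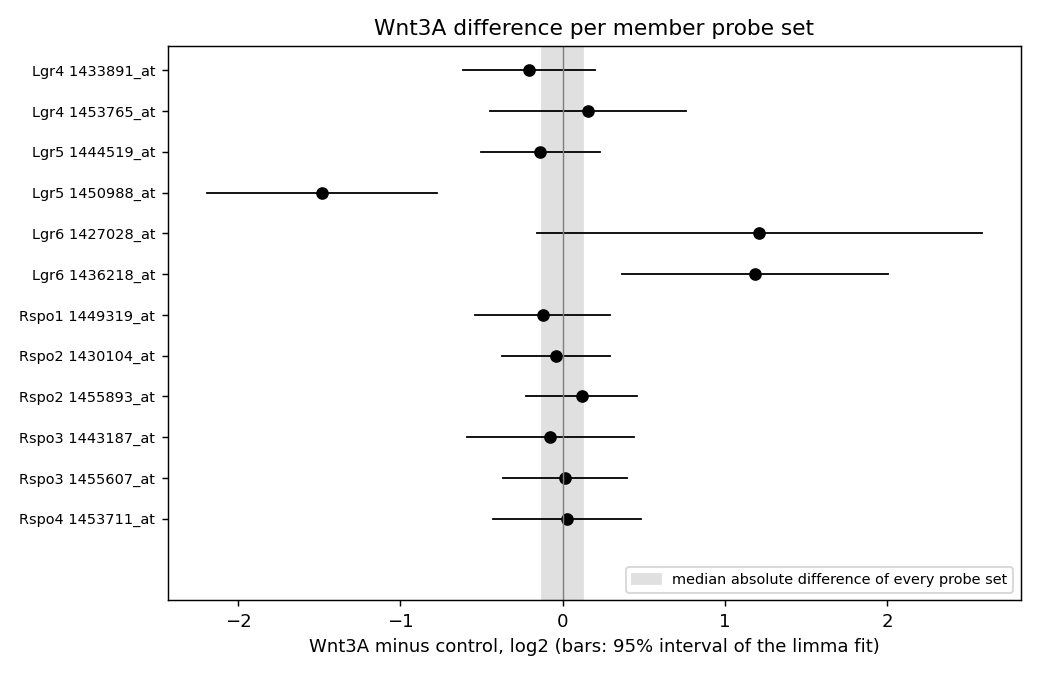
Points are Wnt3A minus control differences in log2 units for the 12 probe sets, bars are 95% intervals of the limma fit over 2 arrays a group, and the grey band is the median absolute difference of all probe sets, 0.128. The intervals of Lgr5 1450988_at (-2.19 to -0.77) and Lgr6 1436218_at (0.37 to 2.00) do not include 0, before adjustment over all probe sets, and the other 10 do.

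Against the array as a whole, the differences of 3 receptor probe sets were large and those of the other 9 members were not. Of all probe sets, 0.517% had an absolute difference at least as large as Lgr5 1450988_at, and the shares were 0.964% and 1.03% for the 2 probe sets of Lgr6. The shares were 32.3% and 42.5% for the 2 probe sets of Lgr4 and 47.3% for Lgr5 1444519_at. For the R-spondin probe sets they were between 51.5% and 92.2%. The median absolute difference was 0.130 over the 12 members, beside 0.128 over all probe sets. Both Wnt3A arrays lay above both controls for 3 of the 12 members, beside 17.4% of all probe sets, and below both for 2 of the 12, beside 16.3%. With 12 probe sets from 7 genes these counts are near the background. Groups that do not overlap in this way are called separated, higher or lower, in what follows.

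Differences were smaller in the lower level bands. The median absolute difference was 0.154 in the upper band, 0.126 in the middle band and 0.079 below log2 4. Rspo3, Rspo4 and 1455893_at of Rspo2 lay in that lowest band, and their differences of -0.08 to 0.12 are read against its median.

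**Figure D4:**
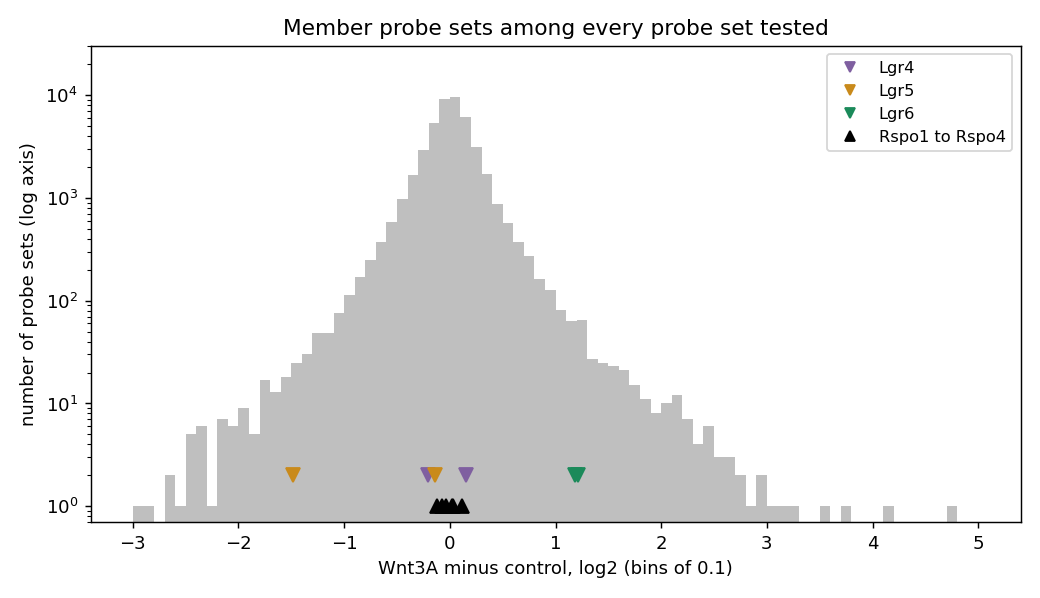
Grey bars count all 45037 probe sets by Wnt3A minus control difference in bins of 0.1 log2 units, on a log axis, and triangles mark the 12 member probe sets at their own differences (their height has no meaning). One Lgr5 probe set at -1.48 and both Lgr6 probe sets at 1.19 and 1.21 lie in the tails, and the R-spondin and Lgr4 probe sets lie near 0.

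Genes with a pattern like that of Lgr6 over the 4 arrays were named by the smallest root mean square difference from its gene value among 16926 genes. This gene value was that of 1436218_at, its probe set in the higher band. The 3 nearest were Cxcl16 (0.099 log2 units), Inhba (0.105) and Cldn23 (0.105), which encode a membrane-bound chemokine, a subunit of activin and a claudin. Inhba had 0.53 and 0.35 in the Wnt3A arrays, against -0.94 and -0.35 in the controls. Cxcl16 differed by 1.10 ± 0.23 and Cldn23 by 1.26 ± 0.37 log2 units (0.78 without control 1), and each was lowest in control 1, as Lgr6 was. Averaged over all its probe sets, Inhba differed by 0.62. The likeness is a description over 4 arrays. No other member gene spanned more than 1 log2 unit in its gene value, since that of Lgr5 is the mean of its 2 probe sets.

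The rest of the R-spondin receptor machinery was read from a fit over 16926 genes, in which limma called 0 genes at an adjusted p under 0.05 (0%) and 1302 had an unadjusted p under 0.05 (7.69%). Both Wnt3A arrays lay above both controls for 17.2% of genes and below both for 18.3%. Of 11 machinery genes, 3 were separated higher and 2 lower, with a median difference of -0.01 log2 units, beside -0.00 over all genes. Znrf3, a ligase that R-spondins remove and a Wnt target itself, had 0.05 and 0.49 in the Wnt3A arrays, against -0.22 and -0.05 in the controls, a difference of 0.41 ± 0.20 that was 0.19 without Wnt3A 2 and 0.63 without Wnt3A 1. Rnf43, the second ligase, had 0.04 and -0.04 in the Wnt3A arrays, against 0.34 and -0.33 in the controls, and differed by -0.01 ± 0.26. For Rnf43 the controls lay on either side of the Wnt3A arrays.

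The Wnt co-receptor genes were close to no difference or slightly lower. Lrp5 differed by -0.39 ± 0.19 log2 units with separate groups, and by -0.20 without control 1. Lrp6 differed by -0.03 ± 0.29 with groups that overlapped. Dvl1, a signalling protein that binds Frizzled, differed by 0.34 ± 0.14, and Gpc3, a cell surface proteoglycan, by -0.38 ± 0.37, a value that ran from -0.83 to 0.07 as each array was left out. None passed the test, and the adjusted p-values of these 4 genes in limma were 0.674 or more.

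Of the 10 Frizzled genes, the Wnt receptors that the ligases clear, 3 were separated higher (Fzd1, Fzd5 and Fzd10) and 3 lower (Fzd3, Fzd7 and Fzd9). Over all genes 17.2% were separated higher and 18.3% lower. The median difference of the 10 was 0.01. Fzd5 differed by 0.56 ± 0.15 and Fzd7 by -0.56 ± 0.24 log2 units, the second of which was -0.29 without Wnt3A 2. Among other ligands proposed for Lgr4, Ndp, which encodes norrin, had -0.52 and -0.33 in the Wnt3A arrays, against 0.33 and 0.53 in the controls. Its groups were separate and it differed by -0.85 ± 0.15 (limma, adjusted p = 0.398). Tnfsf11, the RANK ligand gene, differed by 0.12 ± 0.14, and by 0.03 without control 2 and 0.21 without control 1. Other leucine-rich repeat receptors related to the Lgr genes, those for relaxin-like peptides and glycoprotein hormones, were near 0: of 4 measured, Rxfp1 differed by 0.17 ± 0.13 (0.10 without Wnt3A 2) and Fshr, Rxfp2 and Tshr by -0.05 to 0.04.

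Lgr5 and Znrf3 are Wnt targets in other tissues, so the canonical targets were set beside them. Of 13 measured, 7 were separated higher and 2 lower (Nkd1 and Dkk4), beside 17.2% and 18.3% of all genes. The median difference was 0.25 log2 units. In limma 3 of the 13 had an unadjusted p under 0.05, all higher, and 0 passed after adjustment. The list was chosen with earlier results of these data known, so its counts are no independent evidence. Axin2, the feedback inhibitor of the pathway, had 1.20 and 0.58 in the Wnt3A arrays, against -0.58 and -1.18 in the controls. The second Axin2 probe set, with a level read below log2 4, differed by -0.12, and the mean of both by 0.82. Axin2 and Lgr6 were thus higher with Wnt3A and Lgr5 1450988_at lower in the same arrays. Notum, which encodes an enzyme that inactivates Wnt proteins, differed by 1.21 ± 0.27. Wif1 differed by 0.72 ± 0.41 with groups that overlapped, and by 0.17 without Wnt3A 1.

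Genes known to accompany Lgr5 in mouse intestinal stem cells were separated in both directions. Of 16 measured, 5 were separated higher and 1 lower, beside 17.2% and 18.3% of all genes, and the median difference was -0.00. Among the 5, Tnfrsf19, Znrf3 and Axin2 were already counted with the canonical targets. Besides Axin2, the largest difference was that of Tnfrsf19, a receptor known as Troy, at 1.54 ± 0.82. It rested on Wnt3A 2 (0.31 without that array), and its other probe sets differed by -0.02 and 0.15. Prom1, a surface protein of stem and progenitor cells, differed by 0.50 ± 0.20 and by 0.28 without Wnt3A 1. Slc12a2, an ion transporter, differed by -0.67 ± 0.30 and by -0.28 without Wnt3A 2. Of 11 genes of hair follicle stem cells, 4 were separated higher and 2 lower, beside 17.2% and 18.3% of all genes, with a median of 0.12. The member Lgr6 is among the 4 and the member Lgr5 among the 2, so these counts are no independent evidence. Krt15, a keratin of the hair follicle bulge, had -2.02 and -1.07 in the Wnt3A arrays, against 1.07 and 1.09 in the controls. Like Lgr5 1450988_at it was lower in both Wnt3A arrays. Gli1, a Hedgehog target, differed by 0.85 ± 0.30 (0.48 without Wnt3A 2), and Cd34, a surface protein of bulge cells, by 0.81 ± 0.46, which was 0.15 without control 2.

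Among proposed mammary stem cell markers, 3 of 8 were separated higher (Procr, Axin2 and Lgr6) and 3 lower (Tspan8, Lgr5 and Krt15). Over all genes the shares were 17.2% and 18.3%. This list includes the members Lgr5 and Lgr6 and was chosen with earlier results of these data known, so its counts are no independent evidence. Tspan8, a tetraspanin, had -1.07 and -0.67 in the Wnt3A arrays, against 0.67 and 1.80 in the controls. These are means over its probe sets in the upper band, with a difference of -2.10, and over all its probe sets Tspan8 differed by -1.54. It was separated in the direction of Lgr5, which is here the mean of its 2 probe sets. For Lgr5 1444519_at alone the groups touched. Procr, the protein C receptor, had 0.66 and 2.31 in the Wnt3A arrays, against -1.87 and -0.66 in the controls. It was separated in the direction of Lgr6. For all 6 the limma adjusted p was 0.288 or more.

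Rspo1 acts within a hormone axis of the luminal cells, and other genes of that axis were set beside it. Of 7 measured, 1 was separated higher (Wnt4) and 3 lower (Pgr, Foxa1 and Cited1), beside 17.2% and 18.3% of all genes. The median difference was -0.80 log2 units, against -0.12 for Rspo1. Pgr, the progesterone receptor, had -0.47 and -0.31 in the Wnt3A arrays, against 0.31 and 1.40 in the controls. These are the values of 1 of its 3 probe sets, and the other 2 differed by -0.20 and -0.35. Averaged over all 3, Pgr differed by -0.60. Control 2 was the highest array for Pgr, for the oestrogen receptor gene Esr1 (1.38) and for Cited1 (3.21), a nuclear regulator in hormone-sensing cells, while Rspo1 was highest in control 1. Without control 2 the differences were -0.70 for Pgr, -0.07 for Esr1 and -0.97 for Cited1. Foxa1 was also highest in control 2 (1.47), but its difference of -2.34 ± 0.49 log2 units was still -1.94 without that array. The list median of -0.80 was the value of Esr1, whose groups overlapped. Averaged over all its probe sets, Esr1 differed by -0.42.

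Markers of other cell types were read in the same arrays as the receptors. Of 6 luminal markers, Krt19 and Foxa1 were separated lower and none higher, and the list medians were 0.02 and -0.48 in the Wnt3A arrays, against -0.015 and 0.09 in the controls. Of 6 measured fibroblast markers, Dcn was separated higher and Pdgfra lower, with medians of 0.19 and -0.34 in the Wnt3A arrays, against -0.02 and 0.02 in the controls. Pdgfra had -0.42 and -1.01 in the Wnt3A arrays, against 1.67 and 0.42 in the controls. Of 4 endothelial markers, Kdr and Tek were separated higher and none lower, with a median difference of 0.02. Of 3 measured immune markers, Cd68 was separated higher and none lower, with a median difference of 0.16. Over all genes 17.2% were separated higher and 18.3% lower. Some of the marker separations were narrow. The nearest arrays of the groups were 0.01 log2 units apart for Kdr, 0.02 for Cd68, 0.03 for Krt19 and 0.04 for Dcn. The gaps were 0.25 for Tek, 0.84 for Pdgfra and 1.35 for Foxa1. The part of these markers in the Lgr5 and Lgr6 differences was not tested.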

How the data were processed

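The deposited table held log2 values of 4 arrays that the authors made with RMA, according to the submitters' processing notes (version not given in the sources used here). Every row had a median of 0 over the 4 arrays, by a step that no source describes and that leaves differences between arrays as they were. Few arrays limit the precision, with a median standard error of 0.158 log2 units per probe set.

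All 45037 probe sets were fitted in one model of limma 3.58.1 (R 4.3.3) with lmFit and eBayes, without covariates, two-sided, with Benjamini-Hochberg adjustment and a threshold of 0.05. The fit had 2 residual and 2.30 prior degrees of freedom. On simulated data, the check required only that fitted differences matched planted ones, not that they were called. For other genes, the probe sets in a gene's highest level band were averaged where they had 1 gene symbol (34945; 932 had several and 9160 none). Genes whose band was under log2 4 (1267 of 18193) were dropped, and 16926 remained. RefSeq held all 7 member identifiers and changed 0 symbols. Members, lists and level bands were chosen with earlier results of these data known. Named genes are all members, up to 4 of each list with the largest absolute differences, and Znrf3, Rnf43, Lrp5, Lrp6, Axin2, Procr and Tspan8 always. Other names give the separated members of a list or its markers. For a member gene spanning more than 1 log2 unit, the 3 nearest genes were named. Alternatives were other scalings, a robust fit, a block for the replicate number, omission of each array, and other filters and probe set rules. Figures were drawn with matplotlib 3.10.9.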

Additional observations from a re-analysis of the deposited data

How the results depend on the processing

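Neither the probe set fit nor the gene fit called a feature under any alternative run, so no member was called. The fit without the lowest level band held 8 of the 12 member probe sets, and the gene fit 5 of the 7 member genes. At an unadjusted p under 0.05 the count of 2801 probe sets was between 2184 and 2478 with an array left out, and 4882 with a replicate block. The labels give no pairing. Deviations of same-numbered arrays from their group means correlated at 0.53 over probe sets, which are not independent, and 2 numbers are too few to establish pairing. With that replicate block the limma adjusted p was 0.37 for Lgr5 1450988_at and 0.433 for each Lgr6 probe set. The block cannot move the differences themselves, because each group holds the same array numbers.

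Small differences changed sign, and the cause was not tested beyond the omission of an array. With each array left out in turn, Lgr4 1453765_at ranged from -0.10 to 0.42, Rspo1 from -0.25 to 0.0018, Rspo2 1430104_at from -0.098 to 0.019, Rspo3 1443187_at from -0.30 to 0.14, Rspo3 1455607_at from -0.080 to 0.11 and Rspo4 from -0.14 to 0.19. Among other genes, Fshr ranged from -0.074 to 0.14, Gpc3 from -0.83 to 0.067, Lrp6 from -0.35 to 0.30, Rnf43 from -0.34 to 0.33, Rxfp2 from -0.20 to 0.16 and Tshr from -0.15 to 0.051. Averaging every probe set of a gene turned Lrp6 to 0.040 and Tshr to 0.0105, and quantile normalization turned Rnf43 to 0.0012. That normalization gave 1.03 for Lgr6 1427028_at and -1.44 for Lgr5 1450988_at. The deposited values hold no levels, so signal over background could be judged only through the bands.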
